A study of Mus musculus with 2 samples.

Results

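Among flow-sorted adipocyte precursor cells of mouse pups, 146 cells carried transcripts of cyclin B2 (Ccnb2), of the centromeric histone H3 variant Cenpa or of both while having almost none of the proliferation genes Mki67 and Top2a. They were chosen by their counts of unique molecular identifiers (UMIs, each of which marks 1 captured transcript molecule). A cell had to have at least 500 detected genes, at most 10% of UMIs from mitochondrially encoded genes, at least 2 UMIs of Ccnb2 and Cenpa together, fewer than 2 of Mki67 and Top2a together, and fewer than 2 of the S-phase genes Rrm2 and Tyms together. This gave 146 of 6885 kept cells, or 2.12% (95% exact binomial interval 1.79 to 2.49), and they are called Ccnb2/Cenpa cells here. They were set against 215 Mki67/Top2a cells, which had at least 2 UMIs of Mki67 and Top2a together, and against 4769 six-gene-negative cells, which had no UMI of any of the 6 genes. The other 1755 kept cells were in none of these classes.

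The cells came from subcutaneous adipose tissue of wild-type pups 12 days old. Pups were fostered by dams whose milk fat had a high or a low n-6/n-3 ratio of polyunsaturated fatty acids, with 1 sample for each diet and, per the labels, 3000 sorted cells put into each capture, against 6905 barcodes in the matrix. Both samples were captured with 10x Genomics 3′ version 2 chemistry, and cells are described in the labels both as fresh and as frozen and thawed, with permeable cells removed. The deposited matrix joins the samples and parts their barcodes by a suffix that no label ties to a diet, so the libraries are called 1 and 2 and no diet is attached to either. Library 1 held 69 Ccnb2/Cenpa cells among 3307 kept cells (2.09%), and library 2 held 77 among 3578 (2.15%). Each class is 1 pool of cells with no replicate, so differences are given as sizes with 95% intervals for counting error only, and none was tested. Of the barcode sequences, 17 occurred in both libraries, 2 of them in Ccnb2/Cenpa cells.

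As background, Ccnb2 is the partner of the kinase Cdk1 at entry into mitosis, and its protein is destroyed at anaphase. Cenpa replaces histone H3 in the nucleosomes on which the kinetochore is built, and new Cenpa protein is loaded after mitosis. Mki67 and Top2a, a chromosome surface protein and a DNA topoisomerase, are abundant from S phase to mitosis. Most histone genes are transcribed during S phase into messages that end in a stem-loop in place of a poly(A) tail. A few, Hist1h1c (histone H1.2) and Hist1h2bc (a histone H2B) among them, can also yield polyadenylated messages, the kind that the oligo-dT capture used here reads.

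Ccnb2 lies on chromosome 9 (70407692 to 70421547, minus strand), Cenpa on chromosome 5 (30666777 to 30674830, plus strand), Hist1h2bc on chromosome 13 (23684199 to 23692908, plus strand) and Hist1h1c on the same chromosome (23738808 to 23740367, plus strand), 45.9 kb beyond the end of Hist1h2bc. These are protein-coding genes in the GENCODE annotation of GRCm38, the assembly also known as mm10. The RefSeq promoters (build GRCm38.p6, 250 bases before to 50 after the start, 5′ to 3′) of the 2 genes that define the cells, of Hist1h1c, and of Cdca3, which was more than 20-fold above six-gene-negative cells, follow. Capitals mark matches on either strand to 5 motifs, and no matches overlap in these windows. The cell cycle genes homology region was searched as TTTGAA, the CCAAT box by its name, and the TATA box as TATAAA. The histone octamer was searched as ATGCAAAT and the histone H1 box as AAACACA. Hist1h2bc had no entry.
Ccnb2, chr9:70421505-70421804, minus strand: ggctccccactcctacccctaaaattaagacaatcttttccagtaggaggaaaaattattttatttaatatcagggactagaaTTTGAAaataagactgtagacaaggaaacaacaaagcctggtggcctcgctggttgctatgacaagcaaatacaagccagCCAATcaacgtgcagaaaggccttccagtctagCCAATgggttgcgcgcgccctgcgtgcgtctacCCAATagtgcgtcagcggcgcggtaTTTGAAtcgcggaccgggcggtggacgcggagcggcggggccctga
Cenpa, chr5:30666636-30666935, plus strand: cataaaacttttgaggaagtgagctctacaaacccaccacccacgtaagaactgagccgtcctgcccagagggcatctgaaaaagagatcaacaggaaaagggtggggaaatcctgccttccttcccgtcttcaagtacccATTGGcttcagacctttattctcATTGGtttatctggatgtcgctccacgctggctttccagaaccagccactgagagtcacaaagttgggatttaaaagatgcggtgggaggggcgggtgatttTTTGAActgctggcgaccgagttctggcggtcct
Hist1h1c (H1f2 in RefSeq), chr13:23738557-23738856, plus strand: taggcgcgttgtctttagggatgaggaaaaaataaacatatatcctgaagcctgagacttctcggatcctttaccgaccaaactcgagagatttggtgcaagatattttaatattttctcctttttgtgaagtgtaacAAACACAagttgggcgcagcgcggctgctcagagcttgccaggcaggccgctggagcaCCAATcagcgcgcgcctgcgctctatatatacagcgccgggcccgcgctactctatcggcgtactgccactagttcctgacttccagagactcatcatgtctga
Cdca3, chr6:124829926-124830225, plus strand: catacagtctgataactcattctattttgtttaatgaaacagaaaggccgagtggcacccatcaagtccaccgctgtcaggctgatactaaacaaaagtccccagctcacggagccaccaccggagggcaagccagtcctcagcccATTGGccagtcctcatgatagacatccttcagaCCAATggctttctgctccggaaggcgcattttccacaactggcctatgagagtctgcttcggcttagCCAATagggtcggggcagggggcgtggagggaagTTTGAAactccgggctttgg
The Ccnb2 window had 3 CCAAT matches and 2 of TTTGAA, the Cenpa window 2 and 1, and the Cdca3 window 3 and 1. The Hist1h1c window had 1 CCAAT match, 1 AAACACA match and no TTTGAA. Over all 27025 genes with a window, 20.2% had TTTGAA, 41.1% CCAAT, 15.7% TATAAA, 1.97% ATGCAAAT and 8.22% AAACACA in at least 1 of their windows. A match is a run of letters and says nothing here about binding.

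The counts that chose the cells were low and uneven. Among kept cells with fewer than 2 UMIs for each of the other pairs, 666 cells had exactly 1 UMI of Ccnb2 and Cenpa and so stood just outside, 64 had exactly 2, 25 had 3 to 4 and 57 had 5 or more. The median Ccnb2/Cenpa cell had 3 such UMIs and the highest 23. Both genes were detected in 92 of the cells, Ccnb2 alone in 20 and Cenpa alone in 34. Of the 146 cells, 112 had no UMI of Mki67 or Top2a and 34 had 1. By construction Ccnb2 was at 0 in six-gene-negative cells. Its level was 167 CPM (UMIs of the gene per 1000000 UMIs of the class, the unit of all levels below) in Ccnb2/Cenpa cells, against 168 CPM in Mki67/Top2a cells, and that of Cenpa was 230 CPM, against 261 CPM.

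The median Ccnb2/Cenpa cell held 12308.5 UMIs from 3107 genes, against 16162 UMIs and 3648 genes in Mki67/Top2a cells and 12148 UMIs and 2870 genes in six-gene-negative cells. Within the Mki67/Top2a class, the 128 cells with at least 2 UMIs of Ccnb2 and Cenpa had a median of 16826 UMIs. The 57 Ccnb2/Cenpa cells with 5 or more UMIs of the defining pair had 11860. Libraries 1 and 2 taken separately gave the same order, with medians of 12317.5 and 11299 UMIs in these Ccnb2/Cenpa cells, against 17417 and 16722 UMIs in those Mki67/Top2a cells. The classes were cut on raw UMI counts, which grow with the depth of a cell, so this difference in depth is not independent of the rule.

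**Figure D1:**
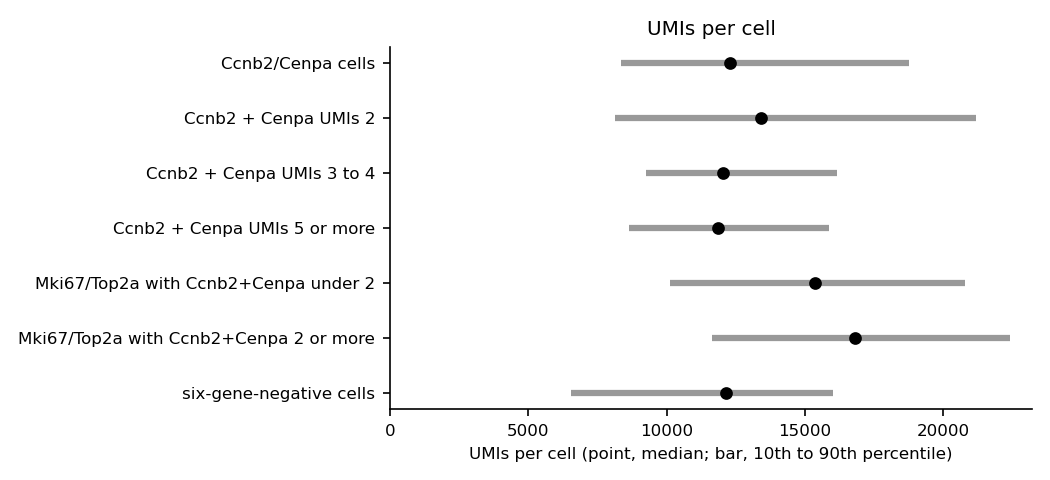
UMIs per cell for Ccnb2/Cenpa cells, for 3 ranges of their Ccnb2 and Cenpa count, for both subsets of Mki67/Top2a cells and for six-gene-negative cells; points are medians over cells and bars run from the 10th to the 90th percentile. The median of Mki67/Top2a cells with 2 or more Ccnb2 and Cenpa UMIs is 16826, above the 11860 of Ccnb2/Cenpa cells with 5 or more.

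Markers of other cell types were concentrated in 8 Ccnb2/Cenpa cells, 4 in each library. In 3 of them at least 54 and up to 131 UMIs came from endothelial genes, and in 5 at least 34 and up to 137 came from macrophage genes. No other Ccnb2/Cenpa cell had more than 3 UMIs of either list. The part that these cells had in other results was measured by leaving them out. Over all Ccnb2/Cenpa cells the 8 macrophage genes summed to 303 and 190 CPM in libraries 1 and 2, against 169 and 132 CPM in Mki67/Top2a cells and 42.7 and 25.0 CPM in six-gene-negative cells. The 7 endothelial genes summed to 85.1 and 245 CPM, against 450 and 253 CPM and 55.7 and 48.6 CPM. Without cells of 10 or more such UMIs, 14.5 CPM of macrophage genes remained in Ccnb2/Cenpa cells, against 17.0 CPM in Mki67/Top2a cells and 19.9 CPM in six-gene-negative cells. Endothelial genes then summed to 26.3 CPM, against 29.2 and 28.9 CPM, and 1 gene of each list was at 0 in Ccnb2/Cenpa cells. The 6 lymphocyte genes summed to 3.14 CPM in Ccnb2/Cenpa cells, with 2 of them at 0. Lyz2, which encodes lysozyme, and Pf4, platelet factor 4, were the leading genes that rested on these cells. Their log2 ratios over six-gene-negative cells were 4.06 and 2.71 with them, and -0.46 and -0.14 without. Hist1h1c was at 194 CPM in Ccnb2/Cenpa cells without them, and Hist1h2bc at 237.8 CPM. Erythroid genes were detected in 99.6% of kept cells of library 1 and 21.7% of library 2. They summed to 824 and 17.6 CPM in Ccnb2/Cenpa cells, against 8994 and 292 CPM in Mki67/Top2a cells and 5299 and 21.5 CPM in six-gene-negative cells. Cells with 3 or more UMIs of the endothelial, macrophage, lymphocyte and erythroid lists together were also left out. Log2 ratios for Hist1h1c and Hist1h2bc were then 2.34 and 1.71 over Mki67/Top2a cells and 3.35 and 2.77 over six-gene-negative cells. As this setting counts erythroid UMIs, it could leave out far more cells of library 1 than of library 2. It is therefore not an even check on both libraries.

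The sorted cells' own identity genes were present. Pdgfra, the receptor that marks adipose progenitors, was at 115 CPM in each library of Ccnb2/Cenpa cells, against 126 and 159 CPM in Mki67/Top2a cells and 128 and 132 CPM in six-gene-negative cells. Cd34, a surface glycoprotein of progenitors, was at 933 CPM, against 776 CPM in Mki67/Top2a cells and 831 CPM in six-gene-negative cells. Pi16, a peptidase inhibitor of the Dpp4-type progenitors, was at 1668 CPM, against 1529 and 1555 CPM. None of the 8 identity genes and none of the 10 Dpp4-type genes differed 2-fold from either class. Over all genes 2.38% were 2-fold higher and 0.279% 2-fold lower than in six-gene-negative cells. Against Mki67/Top2a cells these shares were 1.2% and 6.06%. None of 8 or of 10 is near such shares and does not set these lists apart from other genes. The label under which the cells were proposed calls them post-mitotic. Passage through mitosis is not measured by these counts, so the cells are named by their genes.

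Across all genes, 7172 reached 10 CPM in Ccnb2/Cenpa or six-gene-negative cells. Of these, 171 (2.38%) were at least 2-fold higher in Ccnb2/Cenpa cells and 20 (0.279%) at least 2-fold lower. Without cells of other types these numbers were 116 of 7163 (1.62%) and 27 (0.377%), and with totals scaled by trimmed mean of M-values (TMM) they were 124 and 55. Against Mki67/Top2a cells, 92 of 7654 genes (1.2%) were 2-fold higher and 464 (6.06%) 2-fold lower, or 81 (1.07%) and 440 (5.79%) without cells of other types. The same side was seen in both libraries for 157 of the 171, 17 of the 20, 86 of the 92 and 451 of the 464 genes. The median log2 ratio of all genes was 0.15 over six-gene-negative cells, and it was -0.06 with TMM scaling. Smaller differences against that class are therefore read from 0.15 and not from 0. Over Mki67/Top2a cells the median was 0.02.

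By level, Hist1h1c and Hist1h2bc set the Ccnb2/Cenpa cells apart from both other classes. Hist1h1c, a linker histone that binds between nucleosomes, was at 136 and 231 CPM in Ccnb2/Cenpa cells of libraries 1 and 2, against 57.9 and 44.2 CPM in Mki67/Top2a cells and 18.1 and 21.8 CPM in six-gene-negative cells. Hist1h2bc, a core histone gene, was at 252 and 208 CPM, against 62.9 and 67.2 CPM in Mki67/Top2a cells and 31.1 and 32.0 CPM in six-gene-negative cells. For both genes the lower library of the Ccnb2/Cenpa cells stood above either library of the other classes. The fold of Hist1h1c was 3.71 over Mki67/Top2a cells (3.09 to 4.47) and 9.27 over six-gene-negative cells (8.20 to 10.5). For Hist1h2bc it was 3.50 (2.98 to 4.13) and 7.28 (6.54 to 8.08). Per cell, Hist1h1c averaged 2.41 UMIs, against 0.819 in the deeper Mki67/Top2a cells and 0.237 in six-gene-negative cells.

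At least 1 UMI of Hist1h1c was found in 75 of 146 Ccnb2/Cenpa cells (51.4%), in 75 of 215 Mki67/Top2a cells (34.9%) and in 845 of 4769 six-gene-negative cells (17.7%). After each cell was thinned to 7470 UMIs the shares were 49.6%, 25.7% and 12.9%. The Mki67/Top2a class was mixed. Of its 128 cells with at least 2 UMIs of Ccnb2 and Cenpa, 64 (50%) had Hist1h1c, near the share of Ccnb2/Cenpa cells. Thinning brought this to 37.1%. In the 87 other Mki67/Top2a cells Hist1h1c was found in 11 (12.6%). Kept cells with 10 or more endothelial, macrophage or lymphocyte UMIs, whose median depth was 12005 UMIs, had it in 22 of 87 (25.3%). High counts were rare: 54 of the 6885 kept cells had 10 or more UMIs of the 2 histone genes together, and 30 of these 54 (55.6%, 41.4 to 69.1) were Ccnb2/Cenpa cells, 11 were Mki67/Top2a cells and 9 were six-gene-negative cells. The highest Ccnb2/Cenpa cell had 32 such UMIs, the median cell 3 and the lowest 0.

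**Figure D2:**
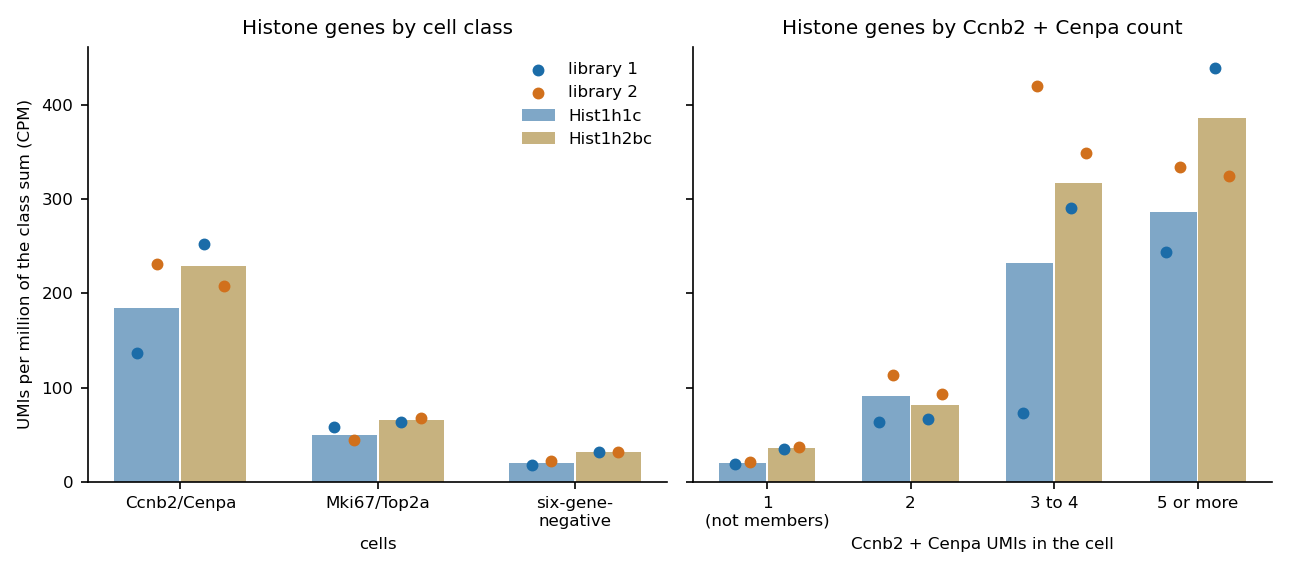
Hist1h1c and Hist1h2bc in CPM of the summed cells, by class on the left and by the Ccnb2 and Cenpa count of the cell on the right; bars pool both libraries and points are libraries 1 and 2. Levels in Ccnb2/Cenpa cells lie between 136 and 252 CPM in either library, above the 44.2 to 67.2 CPM of Mki67/Top2a cells and the 18.1 to 32.0 CPM of six-gene-negative cells.

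The other histone genes of the replication-dependent clusters did not share this pattern as a group. The other 66 genes summed to 72.8 CPM in Ccnb2/Cenpa cells, against 722 CPM in Mki67/Top2a cells and 28.8 CPM in six-gene-negative cells. Of the 722 CPM, 549 CPM came from 1 gene, Hist1h2ap, so that sum largely follows this gene. Hist1h2ap, a histone H2A gene, was at 2.13 and 5.16 CPM in Ccnb2/Cenpa cells (7 UMIs in all), against 466 and 605 CPM in Mki67/Top2a cells and 1.98 and 4.52 CPM in six-gene-negative cells. It was thus near the six-gene-negative level in each library. Histone genes of these clusters have close copies, between which the authors' counting could divide reads. Of 8 measured histone genes of this kind, 3 were 2-fold higher than in Mki67/Top2a cells (Hist1h1c, Hist1h2bc and Hist3h2a) and 4 were 2-fold lower (Hist1h2ap, Hist1h2ae, Hist1h1e and Hist1h1b). In this comparison the 4 lower genes reached 10 CPM only in Mki67/Top2a cells, and Hist3h2a only in Ccnb2/Cenpa cells. The sides of these genes were thus set by that minimum. Hist3h2a, another H2A gene, was at 20.4 CPM in Ccnb2/Cenpa cells, against 9.60 CPM in Mki67/Top2a cells and 12.2 CPM in six-gene-negative cells. Hist1h4i, a histone H4 gene chosen after its values were seen, was at 14.7 CPM, against 15.8 and 1.18 CPM.

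Histone variants outside these clusters ranged from near the Mki67/Top2a level to near the six-gene-negative level. H2afz, the histone variant H2A.Z, was at 1068 and 1212 CPM in Ccnb2/Cenpa cells, against 1850 and 1991 CPM in Mki67/Top2a cells and 373 and 380 CPM in six-gene-negative cells. H2afv, its sister gene, was at 475 and 490 CPM, against 644 and 669 CPM and 156 and 147 CPM. H2afx, the variant phosphorylated at DNA breaks, was at 39.8 CPM, against 211 CPM in Mki67/Top2a cells and 28.7 CPM in six-gene-negative cells. Of 10 variant histones, 3 were 2-fold higher than in six-gene-negative cells (H2afv, H2afz and H1fx), with a median log2 ratio of 0.54 beside 0.15 for all genes.

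The cell cycle genes ranged from those still near their level in Mki67/Top2a cells, through those in between, to those within 2-fold of six-gene-negative cells. Of 77 cell cycle and histone genes with at least 50 CPM in Mki67/Top2a cells, 60 were at least 2-fold lower in Ccnb2/Cenpa cells and 24 of these at least 4-fold lower. The 77 genes were picked by their level in Mki67/Top2a cells, so a lower level elsewhere was partly set in advance. Over all measured genes 6.06% were 2-fold lower. Of the 60, 37 were still 2-fold above six-gene-negative cells, and 23 were within 2-fold of them. Only 5 of the 77 genes were within 2-fold of Mki67/Top2a cells and 2-fold above six-gene-negative cells, namely Hmgn2, Hmgb1, H2afv, H2afz and Cdkn3, and 1, Hist1h2bc, was 2-fold above both.

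Chromatin proteins led the group near the Mki67/Top2a level. Hmgn2, a nucleosome-binding protein, was at 470 and 501 CPM in Ccnb2/Cenpa cells, against 542 and 579 CPM in Mki67/Top2a cells and 111 and 122 CPM in six-gene-negative cells. Hmgb1, a DNA-bending protein, was at 748 CPM, against 884 CPM and 310 CPM. Cdkn3, a phosphatase that acts on cyclin-dependent kinases, was at 31.4 CPM, against 56.7 CPM in Mki67/Top2a cells and 1.13 CPM in six-gene-negative cells, but its log2 ratio over six-gene-negative cells was -0.04 in the cells with exactly 2 UMIs of the defining pair.

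In between were genes of the centromere, the spindle and mitotic regulation. Cdca3, an adaptor for destruction of mitotic inhibitors, was at 88.3 and 82.6 CPM in Ccnb2/Cenpa cells, against 225 and 213 CPM in Mki67/Top2a cells and 3.72 and 4.56 CPM in six-gene-negative cells. Lockd, a long noncoding RNA transcribed downstream of Cdkn1b, was at 92.2 CPM, against 200 CPM and 5.33 CPM. Stmn1, which destabilises microtubules, was at 255 CPM, against 724 CPM and 24.1 CPM. These 3 genes were more than 10-fold above six-gene-negative cells and 2.17-fold to 2.84-fold below Mki67/Top2a cells. Cenpf, a kinetochore protein, was at 39.8 CPM, against 125 CPM in Mki67/Top2a cells and 1.30 CPM in six-gene-negative cells. Birc5 (survivin), of the chromosomal passenger complex, was at 67.1 CPM, against 264 CPM and 6.44 CPM.

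At the low end, Aurkb, the kinase of that same complex, was at 2.10 CPM (4 UMIs) in Ccnb2/Cenpa cells, against 64.7 CPM in Mki67/Top2a cells and 1.0 CPM in six-gene-negative cells. Cdk1, the mitotic kinase itself, was at 7.44 and 6.20 CPM in the 2 libraries, against 158 and 160 CPM in Mki67/Top2a cells and 3.06 and 3.84 CPM in six-gene-negative cells. Cdk1, the partner of Ccnb2, was thus 23.4-fold below Mki67/Top2a cells. The level of Ccnb2 was fixed by the choice of cells, so no contrast between the partners can be drawn. Ube2c, the ubiquitin-conjugating enzyme of the anaphase-promoting complex, was at 21.5 CPM, against 365 CPM and 6.23 CPM. Nusap1 and Prc1, which bundle spindle microtubules, were at 6.29 and 7.86 CPM in Ccnb2/Cenpa cells, against 95.7 and 115 CPM in Mki67/Top2a cells and 1.39 and 2.15 CPM in six-gene-negative cells. Aurkb, Ube2c, Nusap1 and Prc1 were thus low beside Mki67/Top2a cells but still more than 2-fold above six-gene-negative cells.

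**Figure D3:**
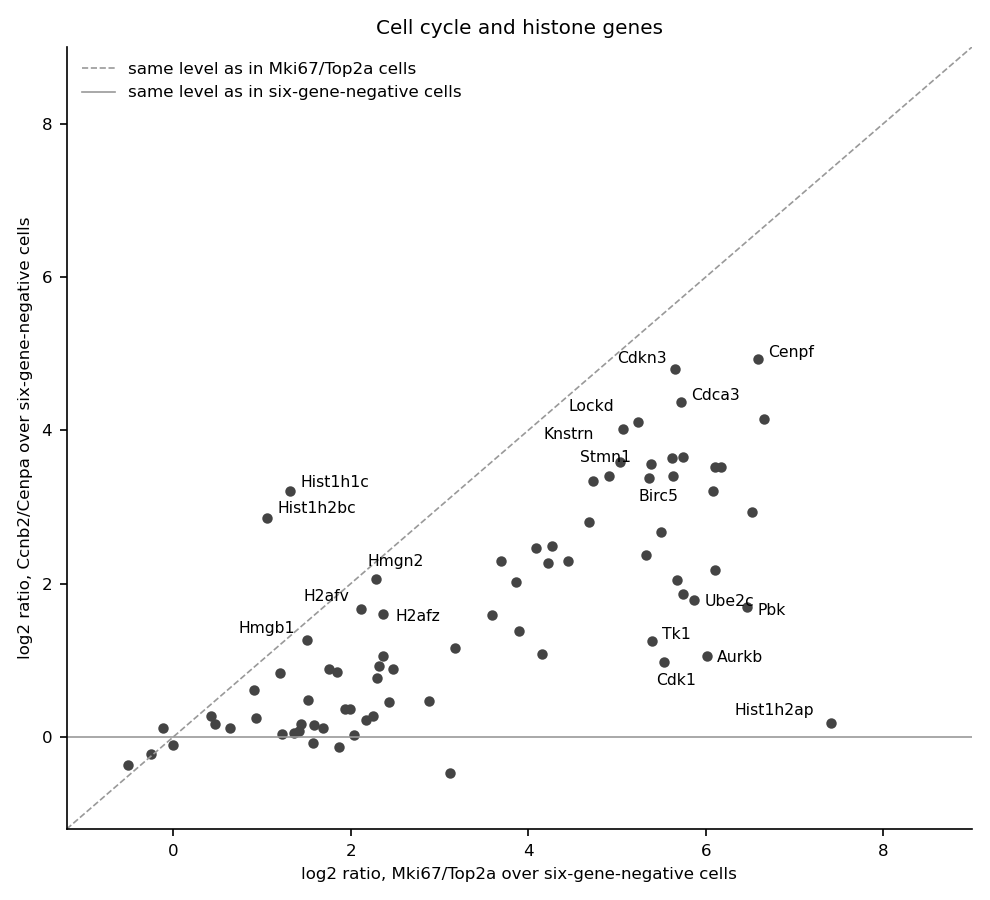
Each point is 1 of the 77 cell cycle and histone genes with at least 50 CPM in Mki67/Top2a cells, plus Hist1h1c at 49.7 CPM and Pbk, a gene outside these lists. The vertical axis is the log2 ratio of Ccnb2/Cenpa over six-gene-negative cells. The horizontal axis is that of Mki67/Top2a over six-gene-negative cells, so both axes share the six-gene-negative cells. Hist1h1c and Hist1h2bc lie above the dashed line of equal levels, Hmgn2 and Hmgb1 just below it, and Hist1h2ap, Aurkb and Cdk1 near the bottom.

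By list, 9 of 13 measured centromere and kinetochore genes and 9 of 13 mitotic kinase, cyclin and anaphase genes were 2-fold higher than in six-gene-negative cells, with median log2 ratios of 2.30 and 2.67. Of 26 spindle, condensation and cytokinesis genes, 15 were 2-fold higher (median 1.22). None of these was 2-fold lower. A gene that reached 10 CPM only in Ccnb2/Cenpa cells, such as Cenpf, Cdkn3 or Birc5, could only be on the higher side. Six-gene-negative cells were also chosen to lack 6 cell cycle genes. Ccnb2/Cenpa cells were required to have Ccnb2 or Cenpa and were held under 2 UMIs of the S-phase genes Rrm2 and Tyms. Higher medians for the mitotic lists than for the replication list were thus partly set by the rule. Over all genes 2.38% were 2-fold higher. Among replication genes 1 of 13 was 2-fold higher, 2810417H13Rik, which encodes the PCNA-associated factor, and the median was 0.33. Pcna itself, the sliding clamp, was at 36.2 CPM in Ccnb2/Cenpa cells, against 139 CPM in Mki67/Top2a cells and 30.9 CPM in six-gene-negative cells. Against Mki67/Top2a cells 42 of 44 replication genes, 33 of 34 centromere genes, 24 of 26 mitotic regulators and 45 of 49 spindle genes were 2-fold lower, and none was 2-fold higher. Over all genes 6.06% were 2-fold lower. Genes measured here but not against six-gene-negative cells reached 10 CPM only in Mki67/Top2a cells. Their lower side was thus set in advance by that minimum. For the genes measured in both comparisons the rule itself also weighed on the side. It held Ccnb2/Cenpa cells under 2 UMIs of Mki67 and Top2a and under 2 of Rrm2 and Tyms. Mki67/Top2a cells were chosen for the first of these pairs, with no limit on the second. Of the 77 genes, 63 had a promoter window, and 28 of these (44.4%) held TTTGAA and 47 (74.6%) CCAAT.

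**Figure D4:**
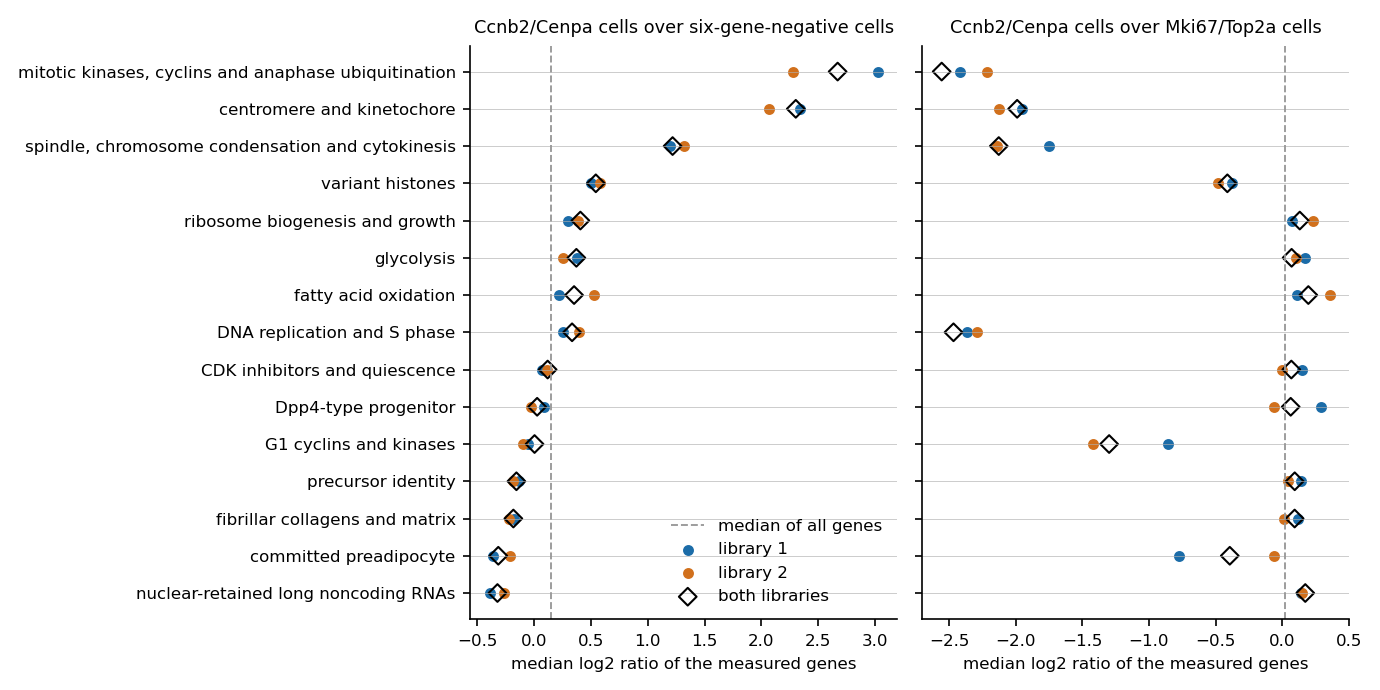
Median log2 ratio of the measured genes of each list, Ccnb2/Cenpa over six-gene-negative cells on the left and over Mki67/Top2a cells on the right; diamonds pool both libraries, points are libraries 1 and 2, and the dashed line is the median of all genes. The mitotic, centromere and spindle lists lie at 2.67, 2.30 and 1.22 on the left, and the replication list lies at 0.33 on the left and -2.47 on the right.

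The Ccnb2/Cenpa cells were not alike. The 64 cells with exactly 2 UMIs of the defining pair had median log2 ratios over six-gene-negative cells of 0.00 for mitotic regulators, 0.48 for centromere genes and 0.37 for spindle genes. The 57 cells with 5 or more had 3.95, 3.52 and 1.98. Hist1h1c was at 20.2 CPM in cells with 1 such UMI, which are outside the class, 91.1 CPM with 2, 232 CPM with 3 to 4 and 286 CPM with 5 or more. Hist1h2bc was at 35.8, 81.2, 318 and 386 CPM in the same order. Libraries parted most in the middle range, where Hist1h1c was at 72.8 CPM in 13 cells of library 1 and 420 CPM in 12 cells of library 2. Cdca3 had 5.0 CPM with 1 such UMI, 13.2 with 2, 101 with 3 to 4 and 173 with 5 or more.

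In CPM, cells just inside the threshold lay closer to those just outside than to the cells with 5 or more UMIs for these 3 genes; as a ratio this did not hold for Hist1h1c. On the side of Mki67 and Top2a, the 13 cells that failed only by having exactly 2 UMIs of Mki67 and Top2a had 288 CPM of Hist1h1c, 221 CPM of Hist1h2bc and 5.53 CPM of Cdk1. The 34 Ccnb2/Cenpa cells with 1 such UMI had 237, 265 and 12.0 CPM. Only 1 cell failed solely by having exactly 2 UMIs of Rrm2 and Tyms.

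Cells with the defining pair were also compared directly, though at unlike minimums, 5 UMIs in Ccnb2/Cenpa cells and 2 in Mki67/Top2a cells. Both histone genes rose with this count in Ccnb2/Cenpa cells, so the sides are not matched. In the 57 Ccnb2/Cenpa cells with 5 or more such UMIs, H2afz was at 1959 CPM, against 2386 CPM in the 128 Mki67/Top2a cells with at least 2. Hmgn2 was at 814 CPM, against 753 CPM. Hist1h1c was at 286 CPM, against 70.5 CPM, and Hist1h2bc at 386 CPM, against 94.9 CPM. In the same cells Cdk1 was at 11.6 CPM, against 215 CPM, Ube2c at 44.8 CPM, against 562 CPM, and Hist1h2ap at 5.78 CPM, against 669 CPM. Hist1h1c, at 15.1 CPM, and Hist1h2bc, at 16.6 CPM, were lower still in the 87 Mki67/Top2a cells with fewer than 2 UMIs of the pair. Those cells had 349 CPM of Hist1h2ap. At the shared minimum of 2 UMIs of the pair, Ccnb2/Cenpa cells had 184 CPM of Hist1h1c and 230 CPM of Hist1h2bc. The 128 Mki67/Top2a cells had 70.5 and 94.9 CPM.

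**Figure D5:**
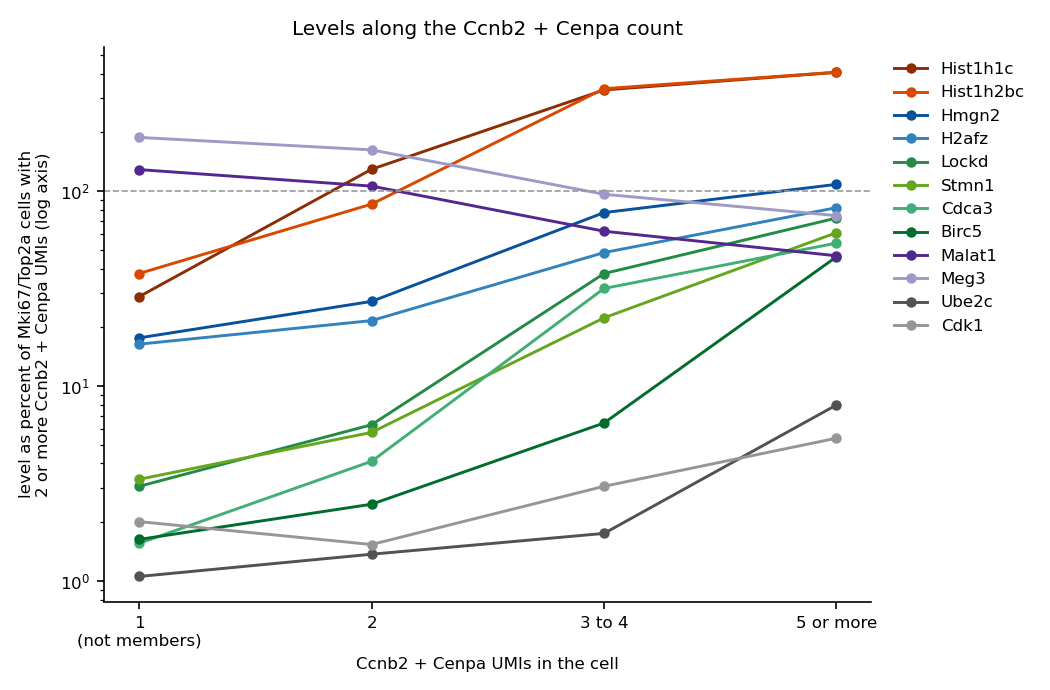
Level of 12 genes in cells with 1 (outside the class), 2, 3 to 4, and 5 or more UMIs of Ccnb2 and Cenpa, as a percentage, on a log axis, of the level in Mki67/Top2a cells with at least 2 such UMIs (dashed line, 100). With 5 or more, Hist1h1c stands at 406%, Hmgn2 at 108%, H2afz at 82.1%, Malat1 at 46.5%, Ube2c at 7.98% and Cdk1 at 5.39%.

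Malat1, an abundant long noncoding RNA of nuclear speckles, was lower in Ccnb2/Cenpa cells than in either other class, at 7803 and 9735 CPM in Ccnb2/Cenpa cells, against 11515 and 11510 CPM in Mki67/Top2a cells and 14960 and 16228 CPM in six-gene-negative cells. It was at 14615 CPM in cells with 1 UMI of the pair, 12022 with 2, 7056 with 3 to 4 and 5279 with 5 or more. In both libraries the cells with 5 or more were low, at 5405 and 5134 CPM. Meg3, an imprinted noncoding RNA, was at 3363 CPM, against 3347 CPM in Mki67/Top2a cells and 5743 CPM in six-gene-negative cells, and at 2093 CPM with 5 or more UMIs of the pair. Neat1, the scaffold of paraspeckles, was at 284 CPM, against 261 and 309 CPM. All 6 measured RNAs of this kind, a list chosen after the values were seen, were on the lower side of six-gene-negative cells, none of them 2-fold, with a median log2 ratio of -0.32. Against Mki67/Top2a cells 5 of the 6 were on the higher side, Malat1 alone was lower, none was 2-fold apart and the median was 0.17.

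Genes of the decision to cycle again were near the six-gene-negative level. None of 7 measured G1 cyclins and kinases was 2-fold apart from six-gene-negative cells, and their median log2 ratio was 0.00. Over all genes 2.38% were 2-fold higher and 0.279% 2-fold lower, so none of 7 is near that share. Against Mki67/Top2a cells 7 of 13 measured genes of this list were 2-fold lower, beside 6.06% of all genes. Some of the 13 reached 10 CPM only in Mki67/Top2a cells, which set their side in advance. Ccnd2, the D-type cyclin with the largest difference, was at 149 CPM in Ccnb2/Cenpa cells, against 135 CPM in Mki67/Top2a cells and 192 CPM in six-gene-negative cells. None of 20 inhibitors of cyclin-dependent kinases and quiescence genes was 2-fold apart from six-gene-negative cells (median 0.12), again near the share over all genes. Cdkn2c, the p18 inhibitor of Cdk4 and Cdk6, was at 9.96 CPM, against 126 CPM in Mki67/Top2a cells and 5.77 CPM in six-gene-negative cells. Cdkn1a, the p21 inhibitor, was at 185 CPM, against 269 CPM and 155 CPM. Gas6, a ligand named for its induction by growth arrest, was the 1 gene of the list that was 2-fold higher than in Mki67/Top2a cells, at 38.8 CPM, against 12.1 CPM and 25.6 CPM. It was at 65.9 CPM in cells with exactly 2 UMIs of the pair and 14.5 CPM in those with 5 or more.

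Differences in matrix and metabolic genes were small. Over all genes 2.38% were 2-fold higher than in six-gene-negative cells and 0.279% 2-fold lower. Finding none 2-fold apart in a short list is therefore near the share of all genes. Of 24 collagen and matrix genes, 23 were on the lower side of six-gene-negative cells and none 2-fold (median log2 ratio -0.18, beside 0.15 for all genes). Col3a1, type III collagen, was at 27676 CPM in Ccnb2/Cenpa cells, against 27592 CPM in Mki67/Top2a cells and 32694 CPM in six-gene-negative cells. None of 22 ribosome biogenesis and growth genes was 2-fold apart from six-gene-negative cells (median 0.41). The 22 fatty acid oxidation genes had a median of 0.35, and 0.13 without cells of other types, and none of the 22 was 2-fold apart from either class. Of the 12 committed preadipocyte genes, none was 2-fold apart from six-gene-negative cells. Dlk1, the preadipocyte factor Pref-1, was at 366 CPM in Ccnb2/Cenpa cells, against 526 CPM in Mki67/Top2a cells and 596 CPM in six-gene-negative cells. Fabp4, the fatty acid carrier of adipocytes and capillary endothelium, was at 671 CPM, against 1234 CPM in Mki67/Top2a cells and 413 CPM in six-gene-negative cells. Without cells of other types it was at 213 CPM, against 311 CPM and 308 CPM, and so no longer above six-gene-negative cells.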

How the data were processed

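Whole-number UMI counts per gene and barcode were used as deposited by the authors in 1 joined matrix of 27998 genes and 6905 barcodes. The submitters' processing notes name Cell Ranger, Seurat 3.0.1 and the build mm10, with no role stated. Per the labels, reads came from 10x 3′ version 2 libraries. No label ties a barcode suffix to a diet, so both samples were used as libraries without a group. Cells with under 500 genes (4) or over 10% mitochondrial UMIs (16) were left out, and no doublet caller was run. Above the 95th percentile of UMIs (18555) were 15 Ccnb2/Cenpa, 66 Mki67/Top2a and 164 six-gene-negative cells.

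Counts were summed over each class (1908458 UMIs in Ccnb2/Cenpa, 3541860 in Mki67/Top2a and 56833494 in six-gene-negative cells) and divided by its total. A gene was measured with at least 10 CPM in 1 of the 2 classes compared, without the 6 genes of the rule. Intervals are 95% Poisson, exact binomial or exact conditional and cover counting error only, as cells of 1 pool are not replicates. Ratios with a class at 0 used a floor of 3 counts per class. Duplicated symbols (65) kept their first row. Named genes were the markers, up to 6 genes per list with at least 20 CPM, up to 12 per direction with at least 50 CPM and the ends of the cell cycle order. Members and lists were chosen with earlier results of these data known. Scripts were tested on simulated data. Tools were Python 3.11.15, scipy 1.17.1, R 4.3.3, and, for scaling factors alone, edgeR 4.0.16 and DESeq2 1.42.0.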

Additional observations from a re-analysis of the deposited data

How the results depend on the processing

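The class of Ccnb2/Cenpa cells rests on few UMIs of 2 genes. The share of 2.12% was 1.61% in thinned cells, 1.19% with at least 3 UMIs of the pair, 1.63% with no Mki67 or Top2a UMI, 0.930% with exactly 2 UMIs and 0.828% with at least 5. For gene counts 2-fold apart, Ccnb2/Cenpa cells over six-gene-negative cells, higher, the 171 genes became 82 at a minimum of 20 CPM, 26 at 50 CPM, 1966 with no minimum, 264 in library 1, 309 in library 2, 455 with at least 3 UMIs and 693 with at least 5. The 20 lower genes became 55 (beside 124 higher) with TMM, 45 (beside 133 higher) with DESeq2 size factors, 12 at 20 CPM, 6 at 50 CPM, 374 with no minimum, 75 and 56 in libraries 1 and 2, 66 in thinned cells, 106 with at least 3 UMIs, 102 without cells of 3 or more UMIs of other-type or erythroid markers, 68 with exactly 2 and 175 with at least 5. Over Mki67/Top2a cells, the 92 higher genes became 37 at 20 CPM, 10 at 50 CPM, 778 with no minimum, 289 and 220 in libraries 1 and 2, 217 in thinned cells, 205 with at least 3 UMIs, 194 without cells of 3 or more such markers, 153 with exactly 2 and 293 with at least 5. The 464 lower genes became 274 at 20 CPM, 104 at 50 CPM and 1275 with no minimum. Smaller pools and lower minimums test more genes at few counts, and other causes were not tested. The setting of 3 or more markers counts erythroid UMIs, which nearly all kept cells of library 1 held, so it bears unevenly on the libraries.

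Of the lists with 3 or more measured genes, 7 had a median 2-fold or more from six-gene-negative cells, and 4 had one without cells of 3 or more such markers and also 4 with exactly 2 UMIs. Without cells of 10 or more markers of other types, list medians turned to -0.15 (endothelial) and -0.54 (macrophage) over six-gene-negative cells and to -0.63 (macrophage) over Mki67/Top2a cells. Log2 ratios over six-gene-negative cells turned to -0.037 for Cdkn3, -0.29 for Cks2 and -1.18 for Racgap1 with exactly 2 UMIs. Without cells of 3 or 10 markers, Lyz2 turned to -0.33 and -0.46 and Pf4 to -0.97 and -0.14. Over Mki67/Top2a cells Lyz2 turned to -0.26 (10 markers), Pf4 to -0.92 (3 markers) and Knstrn to 0.0018 (at least 5 UMIs). Of the other values, 1499 of named genes and 608 of list medians moved by less than their counting interval or the difference between libraries, and 535 and 214 moved by more. The settings of exactly 2, at least 5 and 10 markers were chosen after seeing the data. No paired analysis was possible because no result comes from a test; the classes share both libraries, and the single-library values above compare them within each, which is also leaving out the other library.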
